A study of Mus musculus with 24 samples.

Results

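Metallothioneins and zinc transporters were followed as 6 genes, Mt1, Mt2, Slc30a1, Slc30a10, Slc39a4 and Slc39a14, chosen by gene symbol from the 55421 genes counted in isolated mouse hepatocytes. All 6 had enough counts to be tested, among 13583 tested genes. The hepatocytes came from 24 male mice, 6 in each of 4 groups. The young ND group were C57BL/6N mice labelled 6 months old and kept on a normal diet (ND), and the young HFD group were the same age and substrain on a high-fat diet (HFD). The old ND and old HFD groups were C57BL/6J mice labelled 24 months old on the same 2 diets. HFD supplied 60% of energy as fat, and both diets were given for 9 weeks. Age and substrain cannot be told apart, because every young mouse was of one substrain and every old mouse of the other. The liver was perfused, hepatocytes were purified, and polyA RNA was sequenced in 2 batches that cross the groups. Each group had 3 mice in each batch, except old ND with 2 in batch 1 and 4 in batch 2. Levels are given as CPM, each gene's count scaled to a common library size by TMM, which also allows for library composition.

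Metallothioneins are small cysteine-rich proteins that bind zinc and copper, and the liver is a main site of their synthesis. Their genes are switched on by the zinc-sensing transcription factor MTF-1, which binds short promoter elements called metal response elements (MREs), and also by glucocorticoids and by the IL-6 signal of the acute phase response. Zinc is moved by 2 families of membrane proteins. The ZnT proteins, encoded by Slc30a genes, carry it out of the cytosol, and the ZIP proteins, encoded by Slc39a genes, carry it in. Slc30a1 encodes ZnT1, the zinc exporter of the plasma membrane and itself an MTF-1 target, while Slc30a10 encodes ZnT10, which exports manganese. Slc39a4 encodes ZIP4, the importer best known from zinc uptake in the intestine. ZIP14, encoded by Slc39a14, takes up zinc, manganese and iron in the liver and is induced by IL-6.

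The genes lie at the following places in GRCm38, the mm10 build to which the reads were aligned. Mt1 (ENSMUSG00000031765) spans 94179082 to 94180327 of chromosome 8 and Mt2 (ENSMUSG00000031762) spans 94172664 to 94173568, both on the plus strand, so the 2 genes are neighbours. Slc30a1 (ENSMUSG00000037434) spans 191906767 to 191913247 and Slc30a10 (ENSMUSG00000026614) spans 185454848 to 185468762 on the plus strand of chromosome 1. Slc39a4 (ENSMUSG00000063354) lies on the minus strand of chromosome 15 from 76612383 to 76617384, and Slc39a14 (ENSMUSG00000022094) on the minus strand of chromosome 14 from 70303469 to 70351425. All 6 are protein coding. An antisense transcript is annotated over Mt2 (Gm45774) and over Slc30a1 (1700034H15Rik), and a lincRNA on the other strand over Slc30a10 (Gm2061). Use of strand in the counting was not stated, so reads of these pairs could be mixed.

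The promoters of 4 of the 6 genes are shown because Mt1 and Mt2 moved together within the old HFD group and because Slc30a1 and Slc30a10 hold the same kind of element. The windows are from RefSeq on GRCm38.p6, plus strand, from position -250 to position 30 counted from the RefSeq start, and are 280 bases long. Capitals mark the MRE core, TGCACNC or TGCGCNC with N any base, found on either strand. The windows are chr8:94178839-94179118 for Mt1, chr8:94172368-94172647 for Mt2, chr1:191906531-191906810 for Slc30a1 and chr1:185454598-185454877 for Slc30a10. The RefSeq start of Mt2 lies 46 bases upstream of the start of the gene in the GENCODE annotation.
Mt1: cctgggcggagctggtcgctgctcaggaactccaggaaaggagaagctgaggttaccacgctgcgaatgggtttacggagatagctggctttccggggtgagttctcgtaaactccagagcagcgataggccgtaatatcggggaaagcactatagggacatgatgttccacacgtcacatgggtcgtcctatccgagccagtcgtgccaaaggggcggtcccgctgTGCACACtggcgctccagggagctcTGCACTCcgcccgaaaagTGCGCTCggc
Mt2: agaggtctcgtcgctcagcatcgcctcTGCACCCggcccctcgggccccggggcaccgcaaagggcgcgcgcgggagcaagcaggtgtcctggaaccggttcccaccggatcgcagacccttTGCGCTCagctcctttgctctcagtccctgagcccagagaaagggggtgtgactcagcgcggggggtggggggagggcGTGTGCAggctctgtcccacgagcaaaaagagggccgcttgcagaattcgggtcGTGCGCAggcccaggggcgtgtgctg
Slc30a1: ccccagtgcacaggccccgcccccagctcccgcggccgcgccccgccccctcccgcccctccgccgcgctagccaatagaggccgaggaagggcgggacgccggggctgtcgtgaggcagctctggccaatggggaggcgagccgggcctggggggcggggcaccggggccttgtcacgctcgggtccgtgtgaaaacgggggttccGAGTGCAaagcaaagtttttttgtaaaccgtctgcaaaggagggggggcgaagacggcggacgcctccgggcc
Slc30a10: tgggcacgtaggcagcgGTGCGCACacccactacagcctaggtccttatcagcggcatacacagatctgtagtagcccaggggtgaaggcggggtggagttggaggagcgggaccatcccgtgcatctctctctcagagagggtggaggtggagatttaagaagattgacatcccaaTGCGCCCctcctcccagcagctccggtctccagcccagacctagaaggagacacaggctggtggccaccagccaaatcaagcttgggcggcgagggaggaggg

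In the whole promoter window of 300 bases, which runs 50 bases past the start, Mt1 held 3 MRE cores, at positions -23, 3 and 21. Mt2 held 4, at -223, -128, -50 and 5, the last 2 on the minus strand. Slc30a1 held 2, at -43 and 31 on the minus strand, of which the second lies beyond the bases shown. Slc30a10 held 3, but those at -233 and -232 overlap on opposite strands, so that it had 2 separate places, the other at -73. Of 32851 mouse promoters of the same length, 25.7% held at least 1 such core and 1.97% held 3 or more. The shares with at least 1 core were 12.6% for TGCACNC and 15.4% for TGCGCNC. A match of letters is a description of the sequence and does not show binding. Slc39a4 and Slc39a14 are named without a promoter.

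One mouse has to be described before the comparisons. Old ND replicate 4 had 7739 counts of Mt1 and 6178 of Mt2, that is 632 and 505 CPM. The other old ND mice had 3.72 to 13.3 CPM of Mt1 and 0.634 to 2.66 CPM of Mt2. Among all 13583 tested genes, Mt2 had the widest gap between this mouse and the highest of the other 23, at 31.5-fold, and Mt1 ranked 7 with 11.5-fold. Between them in that ranking stood Saa2, Orm2, Saa1 and Lcn2, which encode secreted proteins of the acute phase response, and Isyna1. Saa2 was at 12000 CPM against 408 in the next mouse, and Lcn2 at 747 against 48.6. The summed level of 21 IL-6 and acute phase genes was 87530 CPM in this mouse and 21450 to 32130 CPM in the other old ND mice. The mouse was the highest of 24 for 14.4% of tested genes and the lowest for 11.7%. It also had the lowest Slc39a4 level, 3.27 CPM, the highest Slc39a14 level, 320 CPM, and the lowest hepatocyte marker sum, 42390 CPM. Old HFD replicate 2, the highest for 20.3% of genes and the lowest for 23.6%, and old HFD replicate 4, with 10.6% and 13.97%, stood apart across the genome too, but not in Mt1 and Mt2. Each comparison is given with all 24 mice and, where it matters, without old ND replicate 4. That mouse was singled out by its own Mt1 and Mt2 levels, so calls of these genes without it are not independent support.

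Total counts on genes were 9200332 to 22185069 per mouse and lowest in old HFD. Mt2 rested on as few as 1 count in a young ND mouse. All 7 hepatocyte markers were detected in every mouse, with Alb at a group median of 58600 to 96140 CPM. Markers of other liver cells were present as well, and their sums differed between the groups. In these bulk samples a lower count of one cell type and less RNA per cell cannot be told apart. The p-values set a difference against the spread between mice. Without a filter on low counts, edgeR gave nearly the same estimates for the members it called, with far smaller adjusted p-values. Those calls therefore rest on a smaller estimate of the spread and are given only as an alternative.

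Mt1 and Mt2 were scarce in hepatocytes of young ND mice and higher in the other groups, as the plot of CPM by mouse shows. Mt1 was at 0.426, 0.403, 0.795, 2.17, 1.83 and 2.73 CPM in young ND replicates 1 to 6. In young HFD it was at 6.61, 7.29, 24.2, 2.41, 12.2 and 3.74 CPM, so that 5 of 6 mice were above every young ND mouse. The old ND values were 5.79, 4.37, 5.16, 632, 3.72 and 13.3 CPM, all above young ND. The old HFD mice had 31.3, 17.3, 9.90, 13.6, 5.04 and 54.8 CPM, again all above young ND. Group medians were thus 1.32 CPM in young ND, 5.47 in old ND, 6.95 in young HFD and 15.4 in old HFD. By the mean, old ND came highest, at 111 ± 256 CPM (SD, n = 6), but its mean without the highest mouse was 6.46 CPM.

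Mt2 had lower counts and, like Mt1, its lowest median in young ND and its highest in old HFD. In young ND it was at 0.189, 0.0671, 0.199, 0.688, 0.630 and 0.482 CPM. Young HFD mice had 0.919, 2.995, 2.65, 0.951, 1.76 and 0.890 CPM, with no overlap with young ND. In old ND the values were 1.41, 0.634, 2.66, 505, 1.29 and 2.39 CPM, and only replicate 2 fell within the young ND range. The old HFD mice, at 8.97, 4.53, 2.09, 2.92, 1.40 and 15.9 CPM, were all above young ND. The medians were 0.340 CPM for young ND, 1.36 for young HFD, 1.90 for old ND and 3.73 for old HFD. Mt1 made up 66.0% to 90.1% of the counts of both genes in 23 mice and 55.6% in old ND replicate 4.

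**Figure D1:**
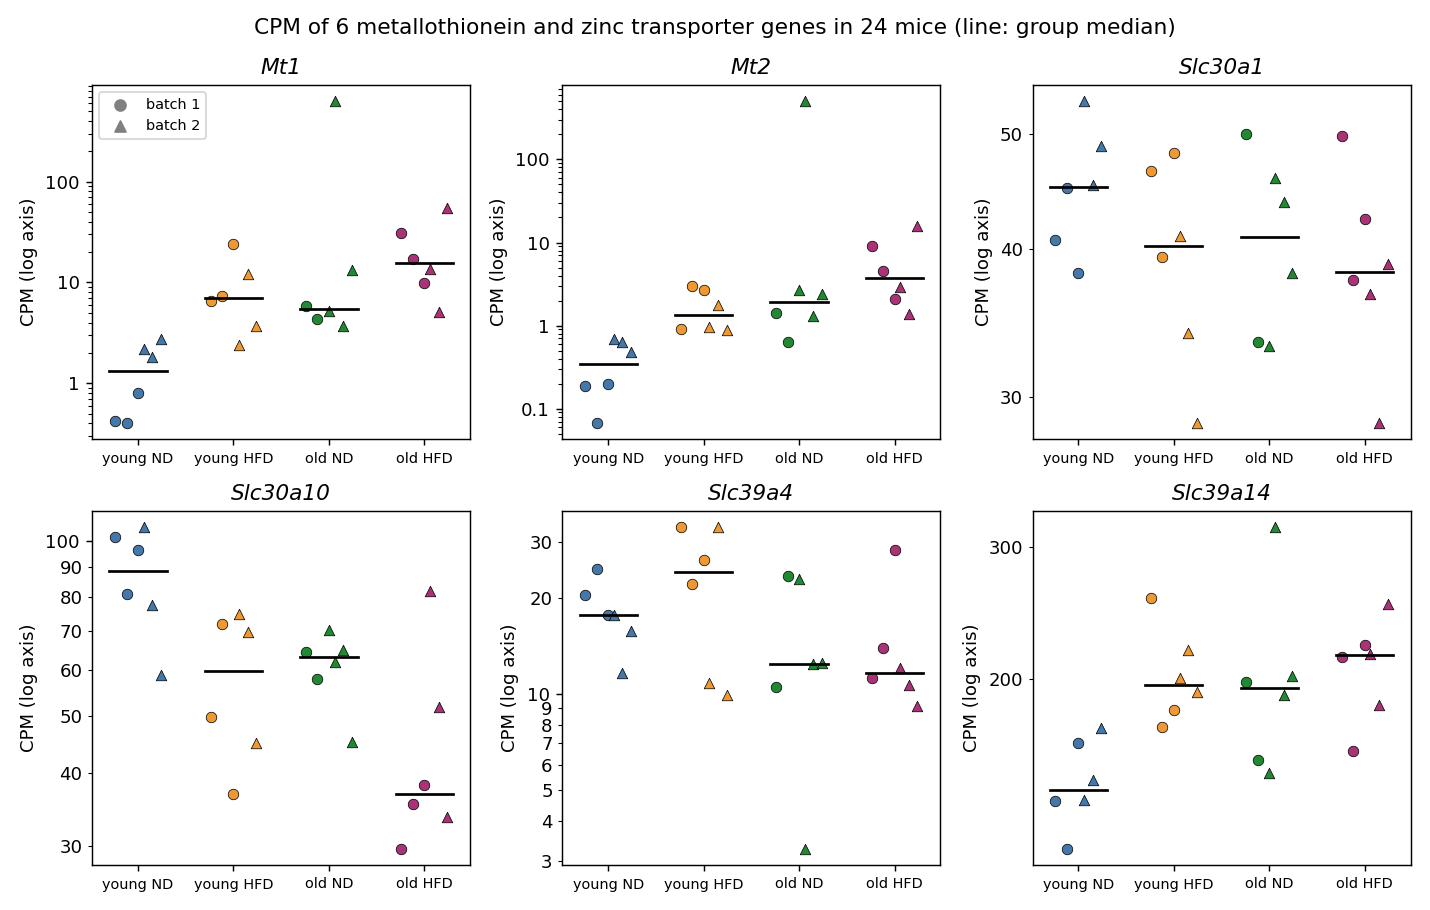
CPM (log axis) of the 6 genes in each of 24 mice by group, with circles for batch 1, triangles for batch 2 and a line at the group median. Old ND replicate 4 stands far above the other mice in Mt1 (632 CPM) and Mt2 (505 CPM), highest in Slc39a14 (320 CPM) and lowest in Slc39a4 (3.27 CPM). In Slc30a10, 5 of 6 old HFD mice lie below every young ND mouse.

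The effect of HFD in young mice was tested as young HFD against young ND. With all 24 mice no member passed the test, in a comparison that called 3.5% of tested genes. The log2 fold change of Mt1 was 3.10 ± 1.22 (SE; adjusted p = 0.139) and that of Mt2 was 2.45 ± 1.69 (adjusted p = 0.436). Both passed without old ND replicate 4, which is in neither group but enters the shared estimate of the spread. The estimates were then slightly smaller and the errors narrower. Mt1 then had a log2 fold change of 2.87 ± 0.63 (7.30-fold, adjusted p = 0.0117) and Mt2 of 2.30 ± 0.60 (4.91-fold, adjusted p = 0.0307). Slc39a14 passed in that fit as well, so 3 of 6 members were called where 4.95% of all genes were. Within batches the log2 fold change of Mt1 was 4.54 in batch 1 and 1.46 in batch 2, and that of Mt2 was 3.75 and 1.01. Both passed in batch 1 (adjusted p = 0.01035 and 0.0399) and neither in batch 2 (adjusted p = 0.837 and 0.924). Without overlap between these groups stood Mt2 and Slc39a14, as did 4.83% of all tested genes.

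For age on ND, old ND against young ND, 2 of 6 members were called, and 8.5% of all tested genes. Mt1 rose by a log2 fold change of 5.99 ± 1.29 (SE; adjusted p = 0.00576) and Mt2 by 7.31 ± 1.60 (adjusted p = 0.0064). Most of the size came from 1 mouse. With old ND replicate 4 left out, Mt1 rose by 2.21 ± 0.63 (4.64-fold, adjusted p = 0.0446) and Mt2 by 2.11 ± 0.61 (4.33-fold, adjusted p = 0.0471), 2 members called where 4.26% of all genes were. In batch 1, which does not hold that mouse, the log2 fold changes were 3.25 for Mt1 and 2.68 for Mt2, and neither passed with 2 old ND mice. In batch 2 they were 6.15 and 7.69 and did not pass either. On the authors' length-scaled FPKM values, which hold no Mt2, Mt1 rose in limma's test with all mice but did not pass. The log2 fold change was 2.75 with 0.1 added (adjusted p = 0.0915) and 2.39 with 1 added (adjusted p = 0.149, and 0.251 without a filter, by limma). Mt1 was the member without overlap in this comparison, where 3.8% of all genes had none.

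Old HFD against young ND gave the most calls of the comparisons with all mice, with 4 of 6 members and 30.2% of all genes called. Mt1 rose by a log2 fold change of 4.14 ± 1.202 (17.7-fold, adjusted p = 0.0129) and Mt2 by 4.15 ± 1.55 (17.7-fold, adjusted p = 0.0444). Both were without overlap, as were 7.26% of all genes. The fold changes moved little without old ND replicate 4, but the errors and adjusted p-values were smaller. They were 4.03 ± 0.63 for Mt1 (adjusted p = 0.000138) and 4.03 ± 0.60 for Mt2 (adjusted p = 9.69e-05), with 4 of 6 members and 32.2% of all genes called. The call of Mt2 was lost, with adjusted p from 0.06996 to 0.104, when any of the 6 young ND mice or old HFD replicate 1, 2 or 6 was left out. Within batches Mt1 differed by 5.14 in batch 1 and 3.45 in batch 2, and Mt2 by 4.98 and 3.51 on the log2 scale. Both passed in batch 1 (adjusted p = 0.00136 and 0.004115) and neither in batch 2 (adjusted p = 0.186 and 0.277).

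Within the old mice the direction of the HFD effect on both metallothioneins depended on 1 mouse. Old HFD against old ND called none of the 6 members by edgeR's test and 3.01% of all genes, and 1.26% of genes, none of them a member, were without overlap. With all mice Mt1 had a log2 fold change of -1.84 ± 1.13 (SE; adjusted p = 0.347) and Mt2 of -3.17 ± 1.36 (adjusted p = 0.172). The signs turned without old ND replicate 4, to 1.82 ± 0.59 for Mt1 (adjusted p = 0.083) and 1.92 ± 0.57 for Mt2 (adjusted p = 0.0624). In batch 1, which does not hold this mouse, they were 1.90 and 2.29, and in batch 2 they were -2.70 and -4.18. The difference was called in neither direction in these fits. Without a count filter, and with old ND replicate 4 included, edgeR called both as lower, Mt1 at -1.82 (adjusted p = 6.3e-20) and Mt2 at -3.15 (adjusted p = 5.66e-46). These estimates were close to those with the filter, so the calls go with a smaller estimate of the spread.

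For age on HFD, old HFD against young HFD, none of the 6 members was called, among 2.24% of all genes called and 0.802% without overlap. Mt1 had a log2 fold change of 1.04 ± 1.01 (adjusted p = 0.580) and Mt2 of 1.70 ± 1.26 (adjusted p = 0.448). The errors were smaller without old ND replicate 4, at 1.16 ± 0.54 for Mt1 and 1.74 ± 0.53 for Mt2 (adjusted p = 0.207 and 0.0671). With all mice and no count filter edgeR called both as higher (adjusted p = 2.77e-07 for Mt1 and 1.83e-14 for Mt2). The remaining pair, old ND against young HFD, with 4.14% of all genes called, did not pass for Mt1 (2.89 ± 1.24, adjusted p = 0.224) or Mt2 (4.87 ± 1.51, adjusted p = 0.0712). In the order of group means of Mt1 and of Mt2 (young ND, young HFD, old HFD, old ND), no 2 neighbours therefore differed beyond their spread by this test. With that mouse left out the old ND means came second, at 6.46 CPM for Mt1 and 1.68 for Mt2, and the step from young ND to old ND passed, as given above.

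Whether HFD acted differently by age was tested as an interaction. It was called for 0% of all tested genes, although 1247 had an unadjusted p under 0.05, and DESeq2 called 4 genes. The edgeR test without a count filter called 587. Mt1 had an interaction of -4.95 ± 1.55 on the log2 scale (unadjusted p = 0.00385, adjusted p = 0.532) and Mt2 of -5.62 ± 2.03 (unadjusted p = 0.0105, adjusted p = 0.532). These came to -1.05 ± 0.83 and -0.38 ± 0.80 (adjusted p = 0.787 and 0.920) without old ND replicate 4. With that mouse included and no count filter they were called by edgeR, at -4.91 and -5.59 (adjusted p = 7.16e-81 and 1.39e-67). The estimates barely differed from those with the filter, so these p-values reflect a far smaller estimate of the spread and not a larger difference.

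**Figure D2:**
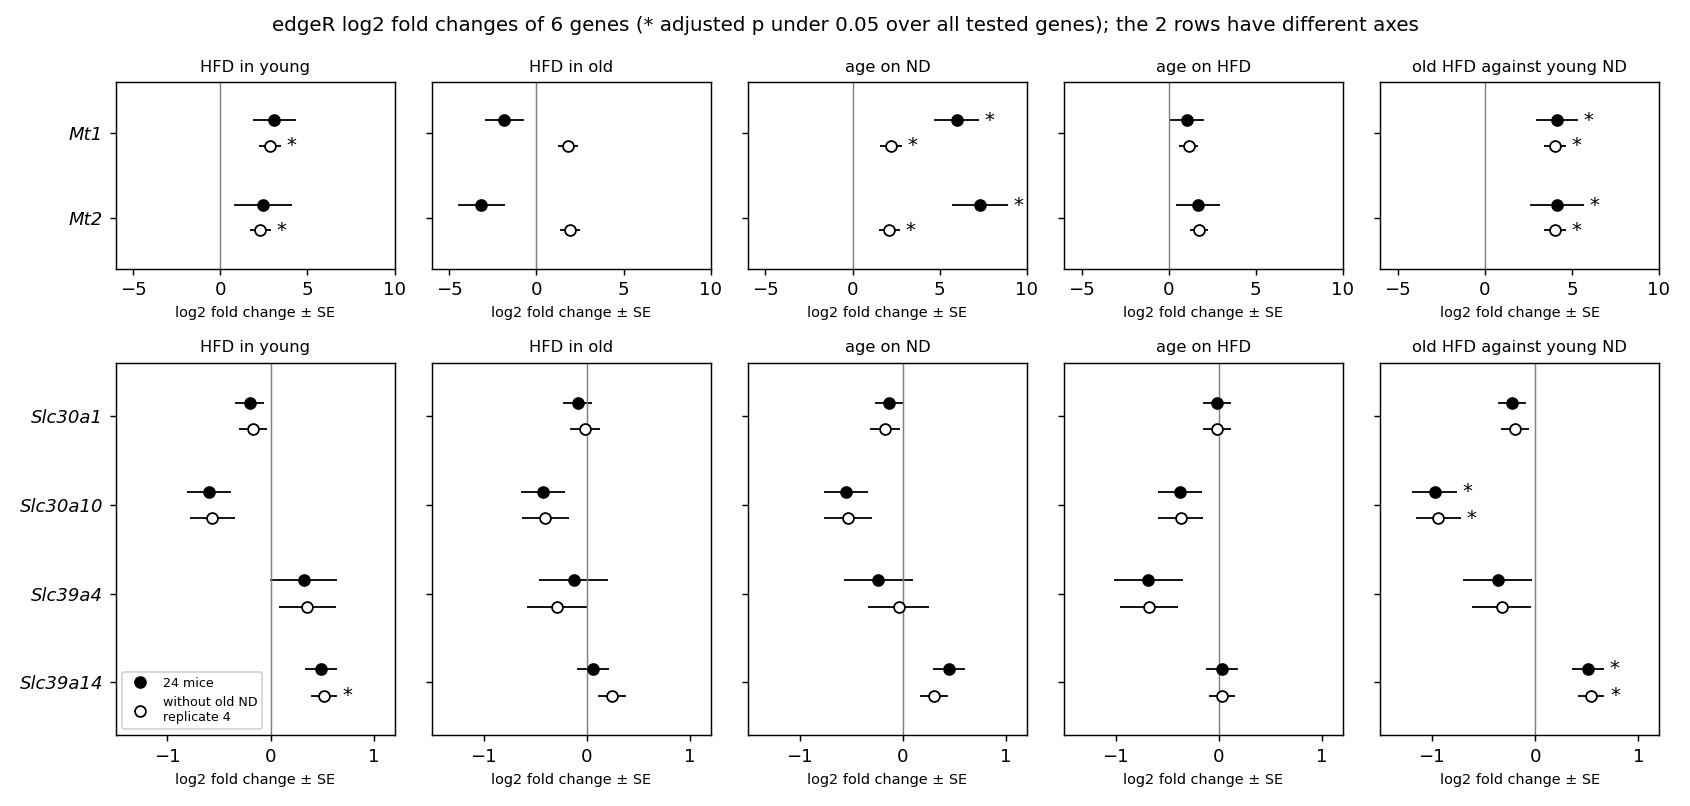
Log2 fold change with its standard error for the 6 genes in 5 comparisons, with filled points for the fit of 24 mice, open points for the fit without old ND replicate 4 and a star for an adjusted p under 0.05. The axis of the upper row is wider than that of the lower row. Leaving out the mouse turns the sign of Mt1 from -1.84 to 1.82 for HFD in old mice and narrows the errors of both metallothioneins in every comparison shown.

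Mt1 and Mt2 rose and fell together from mouse to mouse in old HFD, while in the other groups the correlation was positive but did not pass after adjustment. Within old HFD their log2 CPM values had a Pearson r of 0.990 and a Spearman rho of 1 over 6 mice (exact permutation test, two-sided, p = 0.00278, adjusted p = 0.0111 over 4 groups). The r was 0.996 without the 2 mice farthest from the median of Mt1, and 0.999 in batch 1 and 0.991 in batch 2. In young ND r was 0.917 (exact permutation p = 0.0444, adjusted p = 0.0704), with 0.600 in batch 1 and -0.779 in batch 2, where the 3 mice had similar levels. In old ND it was 0.981 (exact permutation p = 0.0528, adjusted p = 0.0704), but 0.409 without the 2 mice farthest from the median, one of them replicate 4. Young HFD gave 0.725 (exact permutation p = 0.111, adjusted p = 0.111). Spearman's rho was 0.829 in young ND, 0.771 in old ND and 0.657 in young HFD (exact permutation p = 0.0583, 0.103 and 0.175, adjusted p = 0.117, 0.137 and 0.175).

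Other signals moved with the metallothioneins, and their part in these results was not tested. The summed level of 6 Kupffer cell markers was 0.806 to 56.2 CPM in young ND, 9.38 to 137 in young HFD, 26.8 to 856 in old ND and 41.4 to 450 in old HFD. Of these markers 6 of 6 rose with age on ND, and 5 of 6 without old ND replicate 4, where 8.5% and 4.26% of all tested genes were called. The 3 young ND mice of batch 1 had the lowest Kupffer sums of all mice, 0.806 to 2.59 CPM, and the lowest Mt1, while the 3 of batch 2 had 30.9 to 56.2 CPM. Old ND replicate 4 had the highest Kupffer sum, 856 CPM. Old ND replicate 3 had the second highest of its group, 597 CPM, with 5.16 CPM of Mt1. In young HFD replicates 2 and 3, both of batch 1, the sums were 9.38 and 22.6 CPM and Mt1 was at 7.29 and 24.2 CPM. Both measures were above those of the 3 young ND mice of batch 1. Against the 3 young ND mice of batch 2, these sums were lower and Mt1 was higher. Timd4 was at 0 in 2 mice, Adgre1 in 1 and Marco in 3, and the other 3 Kupffer markers were at 0 in none. Markers of neutrophils and monocytes rose with age on ND in 6 of 6, of stellate cells in 5 of 6, of endothelial cells in 3 of 6 and of lymphocytes in 3 of 4 tested, and of 7 hepatocyte markers 0 passed. With that mouse left out these counts were 1 of 6, 3 of 6, 0 of 6 and 3 of 4. With HFD in young mice, which called 3.5% of all tested genes, 1 of 6 Kupffer, 1 of 6 endothelial and 2 of 6 stellate markers rose. Without old ND replicate 4, where Mt1, Mt2 and Slc39a14 were called, these were 1, 5 and 2 of 6. Without old HFD replicate 2 they were 1, 3 and 3, and without old HFD replicate 4 they were 0, 1 and 2. The shares of all tested genes called in these 3 fits were 4.95%, 7.23% and 3.58%. Of 3 tested erythroid markers 2 rose with HFD in young mice, Hba-a1 and Hbb-bs, and with old ND replicate 4 left out the same 2 were called, along with 1 of 3 tested cholangiocyte markers, Spp1. Old HFD against young ND called 30.2% of all tested genes. There 5 of 6 Kupffer, 6 of 6 neutrophil and monocyte, 6 of 6 endothelial, 5 of 6 stellate and 4 of 4 tested lymphocyte markers rose. Of 7 hepatocyte markers 1 rose in that comparison, Apoa1, and 2 fell, Cps1 and Hnf4a. With old ND replicate 4 left out 1 rose and 4 fell, where 32.2% of all genes were called. Without old HFD replicate 2, and again without old HFD replicate 4, 0 rose and Cps1 and Hnf4a were called, where 27.5% and 24.1% of all genes were. Of 3 tested erythroid markers 2 rose and 1 fell. The neutrophil and monocyte sum was 0.470 to 16.4 CPM in young ND, 5.03 to 39.1 in young HFD, 13.04 to 264 in old ND and 16.9 to 134 in old HFD. The endothelial sum was 8.93 to 104 CPM, 34.6 to 236, 27.1 to 530 and 21.7 to 429 in the same groups.

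Acute phase and stress genes are known to share regulation with the metallothioneins, so lists of them were counted. Of all tested genes, 8.5% were called for age on ND, 3.5% for HFD in young mice and 3.01% for HFD in old mice. In the same order these shares were 4.26%, 4.95% and 2.94% without old ND replicate 4. They were 11.5%, 7.23% and 2.33% without old HFD replicate 2, and 9.21%, 3.58% and 2.75% without old HFD replicate 4. Of 21 IL-6 and acute phase genes, 8 rose with age on ND and none fell, led by Lcn2 (log2 fold change 5.01 ± 1.07, adjusted p = 0.00558), with a list median of 0.82 against 0.01 for all genes. Of the 21, 2 rose without old ND replicate 4, Stat3 and Steap4. In HFD in old mice 3 of them fell, led by Stat3 (-0.56 ± 0.15, adjusted p = 0.0363), and without that mouse, or without old HFD replicate 2 or replicate 4, none of the 21 was called. Of 15 tested immediate early and heat shock genes, 9 rose and 1 fell with age on ND, led by Btg2 (2.07 ± 0.34, adjusted p = 0.00183), and without that mouse 6 rose and 1 fell. Among 9 tested NRF2 targets of the oxidative stress response, 3 fell with HFD in young mice, led by Gsr (-0.41 ± 0.09, adjusted p = 0.0132), and 3 fell with HFD in old mice, led by G6pdx (-1.23 ± 0.25, adjusted p = 0.0125). Without old ND replicate 4 these were 4 and 2, and without old HFD replicate 4 they were 3 and 1. One NRF2 target, Hmox1 (1.52 ± 0.41, adjusted p = 0.0205), rose with age on ND, and without that mouse none did. Of 10 glucocorticoid genes, 0 passed with HFD in young mice or with age on ND and 1 rose with HFD in old mice, Tsc22d3 (1.15 ± 0.25, adjusted p = 0.0159). The 11 copper genes and 7 manganese genes held 0 calls in these 3 comparisons with all mice. Without old HFD replicate 2 Cox17 rose with HFD in old mice, and without that mouse or old HFD replicate 4 Sod2 fell with age on ND. With HFD in young mice 0 of the 21 IL-6 and acute phase genes were called, and 2 rose without old ND replicate 4, Lcn2 and Steap4. In old HFD against young ND 7 of the 21 rose and 1 fell, and with old ND replicate 4 left out it was 9 that rose and 2 that fell, where 30.2% and 32.2% of all tested genes were called. In that comparison with all mice 2 copper genes rose, Cox17 and Slc31a2, 1 manganese gene rose, Tmem165, and 1 fell, 8 of 15 immediate early and heat shock genes rose and 2 fell, 1 NRF2 target rose and 4 fell, and of the glucocorticoid genes 1 fell, Tat. The glucocorticoid count turned on single mice, with 2 rising and 0 falling without old HFD replicate 4 and 1 in each direction without old ND replicate 4 or old HFD replicate 2.

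**Figure D3:**
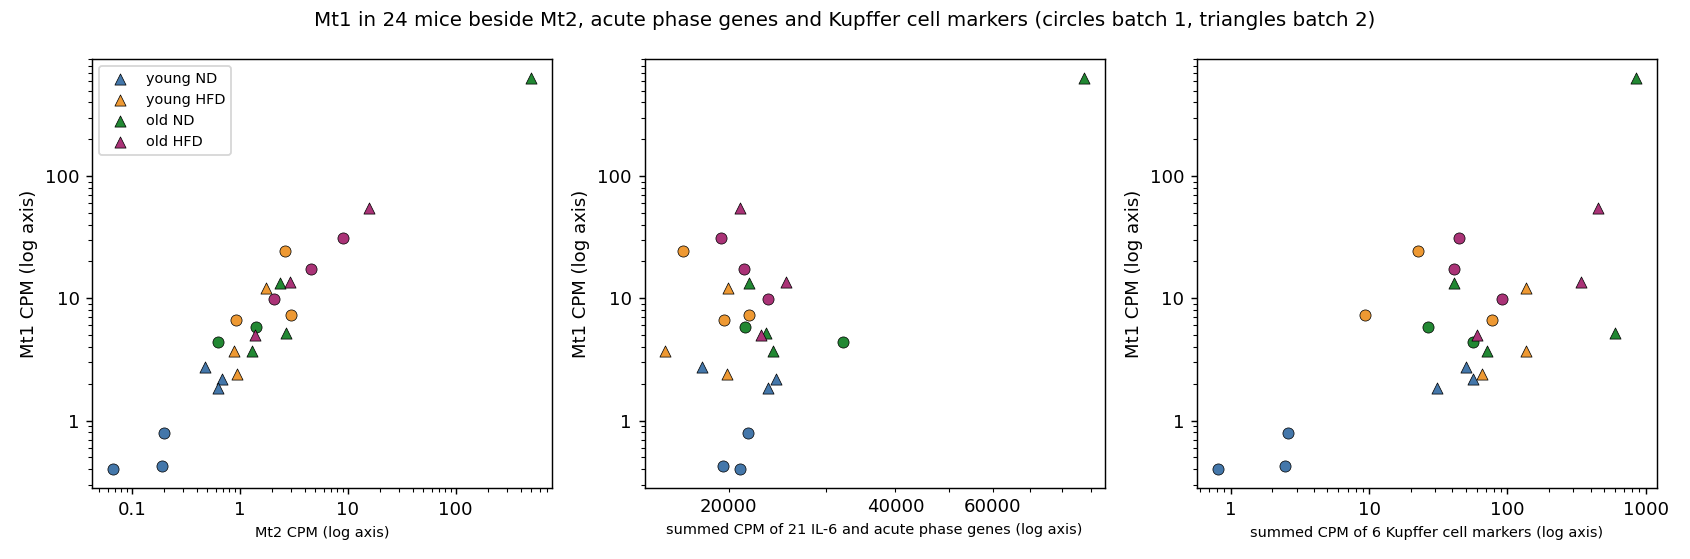
CPM of Mt1 (log axis) in each of 24 mice against CPM of Mt2, the summed CPM of 21 IL-6 and acute phase genes and the summed CPM of 6 Kupffer cell markers (log axes), with circles for batch 1 and triangles for batch 2. Old ND replicate 4, at the upper right of each panel, is the highest mouse in all 4 measures (632, 505, 87530 and 856 CPM).

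Slc30a1, the zinc exporter gene, was not called in any comparison. It was at 38.2 to 53.2 CPM in young ND (median 45.1), 28.5 to 48.2 in young HFD (median 40.2), 33.1 to 50 CPM among old ND mice (median 40.9) and 28.6 to 49.8 CPM among old HFD mice (median 38.2). The groups overlapped in every comparison. Its log2 fold change was -0.20 ± 0.14 for HFD in young mice, -0.09 ± 0.14 for HFD in old mice, -0.14 ± 0.14 for age on ND and -0.02 ± 0.14 for age on HFD. Against young ND the old HFD mice differed by -0.22 ± 0.14 (adjusted p = 0.221), and the adjusted p of the other comparisons was 0.430 or more. Old ND replicate 4, with the extreme Mt1 and Mt2 levels, had 45.9 CPM of Slc30a1. None of the 4 groups differed from a neighbour in the order of the means (young ND, old ND, young HFD, old HFD) beyond the spread by this test.

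Slc30a10, the manganese exporter gene, was at its lowest in old HFD and its highest in young ND. In young ND it was at 101, 80.8, 96.4, 106, 77.7 and 58.8 CPM. The old HFD mice had 29.6, 35.3, 38.1, 82.0, 51.8 and 33.6 CPM, of which 5 were below every young ND mouse and replicate 4 was not. Young HFD and old ND lay between, at 36.7 to 74.8 CPM (median 59.8) and 45.2 to 70.4 CPM (median 63.2). Slc30a10 fell by a log2 fold change of -0.97 ± 0.22 in old HFD against young ND (adjusted p = 0.00243). Within batches it was -1.46 in batch 1, which passed (adjusted p = 0.00456), and -0.52 in batch 2, which did not (adjusted p = 0.273). Each single step had a smaller estimate and did not pass, with -0.60 ± 0.21 for HFD in young mice (adjusted p = 0.105), -0.55 ± 0.21 for age on ND (adjusted p = 0.116), -0.42 ± 0.21 for HFD in old mice (adjusted p = 0.245) and -0.38 ± 0.21 for age on HFD (adjusted p = 0.309). By group mean the order was young ND, old ND, young HFD and old HFD, and no neighbours in it differed beyond their spread by this test. The interaction was 0.17 ± 0.30 (adjusted p = 0.888). Without a count filter edgeR called it lower with HFD in young mice (-0.60, adjusted p = 0.00379) and with age on ND (-0.57, adjusted p = 0.00571).

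Slc39a4, the gene of the intestinal type of zinc importer, was detected in every mouse and varied widely within groups. Its levels were 11.6 to 24.6 CPM in young ND (median 17.7), 9.90 to 33.4 in young HFD (median 24.1), 3.27 to 23.3 among old ND mice (median 12.4) and 9.14 to 28.2 among old HFD mice (median 11.6). The groups overlapped throughout, and no comparison passed in edgeR's test with the count filter. Age on HFD came nearest, its log2 fold change being -0.68 ± 0.33 (adjusted p = 0.238; called without a count filter, at -0.72 with adjusted p = 0.00201), and HFD in young mice gave 0.32 ± 0.33 (adjusted p = 0.638). HFD in old mice gave -0.13 ± 0.34, age on ND gave -0.24 ± 0.33 and old HFD against young ND gave -0.36 ± 0.33 (adjusted p = 0.421 or more). The order of the means was young HFD, young ND, old HFD and old ND, with no neighbours apart beyond their spread by this test.

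Slc39a14, the gene of the IL-6 inducible importer, had the most counts of the 6 and a modest difference between young ND and the other groups. It was at 137, 118, 164, 137, 146 and 172 CPM in young ND and at 257, 172, 181, 200, 219 and 192 CPM in young HFD, where all mice were above young ND, the closest at 172.4 against 171.5 CPM. The old ND mice had 198, 156, 149, 320, 190 and 202 CPM and the old HFD mice 214, 160, 222, 216, 184 and 252 CPM. It rose by a log2 fold change of 0.51 ± 0.15 (1.43-fold, adjusted p = 0.016) in old HFD against young ND. Within batches it was 0.48 in batch 1 and 0.53 in batch 2 and passed in neither (adjusted p = 0.170 and 0.147). For HFD in young mice the estimate was 0.49 ± 0.15 (adjusted p = 0.0756) and it passed at 0.52 ± 0.13 (adjusted p = 0.0216) without old ND replicate 4 and at 0.48 (adjusted p = 0.0493) without old HFD replicate 2. Age on ND gave 0.45 ± 0.16 (adjusted p = 0.0744), 0.30 ± 0.13 without old ND replicate 4 (adjusted p = 0.234) and 0.52 without old ND replicate 3 (adjusted p = 0.0451). HFD in old mice gave 0.06 ± 0.16 and age on HFD gave 0.03 ± 0.15, and the interaction was -0.42 ± 0.22 (adjusted p = 0.554). The means were ordered young ND, old ND, young HFD and old HFD, and no neighbours differed beyond their spread by this test.

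Levels of different genes were compared per kilobase of the principal transcript, 549 bases for Mt1, 511 for Mt2, 5244 for Slc30a1, 5836 for Slc30a10, 2750 for Slc39a4 and 4926 for Slc39a14. By the group median in young ND, Slc39a14 came first at 28.8 CPM per kilobase, then Slc30a10 at 15.2, Slc30a1 at 8.60, Slc39a4 at 6.42, Mt1 at 2.39 and Mt2 at 0.666. In old HFD Slc39a14 stayed first at 43.6, and Mt1 was second at 28.1, above Slc30a1 and Mt2, both at 7.29, Slc30a10 at 6.29 and Slc39a4 at 4.22 CPM per kilobase. In old ND replicate 4 Mt1 was at 1152 and Mt2 at 988 CPM per kilobase, and Slc39a14 at 64.9. The order between genes was different in the authors' FPKM, which hold no Mt2. By the FPKM median in young ND, Slc30a1 came first at 8.01, then Slc30a10 at 6.92, Slc39a4 at 4.05, Slc39a14 at 2.98 and Mt1 at 1.97. In old HFD Mt1 came first at 25.4 FPKM, followed by Slc30a1 at 6.42, Slc39a14 at 4.53 and Slc30a10 at 2.92, with Slc39a4 lowest of these 5 genes. The FPKM of Slc39a14 was 0.0970 to 0.116 of its CPM per kilobase in every mouse, so its place among the genes depends on the scale.

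Of the other genes of these families, Mt3 and Mt4, the brain and epithelial metallothioneins, had at most 20 and 4 counts over the 6 mice of a group and were not tested, and old HFD replicate 2 had the highest level of Mt3, 1.54 CPM. Of 8 other Slc30a genes 6 were tested, and 0 were called in any of the 6 comparisons, although Slc30a5 rose in old HFD against young ND without old ND replicate 4, and Slc30a9 fell with age on ND without old HFD replicate 2. Of 12 other Slc39a genes 11 were tested, of which 0 rose and 3 fell in old HFD against young ND, a comparison that called 30.2% of all tested genes, so that the count is near the background. Slc39a7, whose product ZIP7 releases zinc from the endoplasmic reticulum, fell by a log2 fold change of -1.21 ± 0.22 in that comparison (adjusted p = 0.000594), with all 6 old HFD mice below young ND. It also fell with HFD in old mice (-0.85 ± 0.22, adjusted p = 0.0345) and with age on HFD (-0.81 ± 0.22, adjusted p = 0.0479). Both of these calls were lost without old HFD replicate 2 or replicate 4. Slc39a9, the gene of ZIP9, fell with age on ND (-0.42 ± 0.12, adjusted p = 0.0302), a call lost without old ND replicate 4, with age on HFD (-0.47 ± 0.12, adjusted p = 0.0418), a call lost without old HFD replicate 2 or replicate 4, and in old HFD against young ND (-0.44 ± 0.12, adjusted p = 0.00904). Slc39a10, a plasma membrane zinc importer gene, fell in old HFD against young ND (-0.75 ± 0.27, adjusted p = 0.0387), a call lost without old HFD replicate 2 or replicate 4. Erh lies over Slc39a9 on the other strand.

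**Figure D4:**
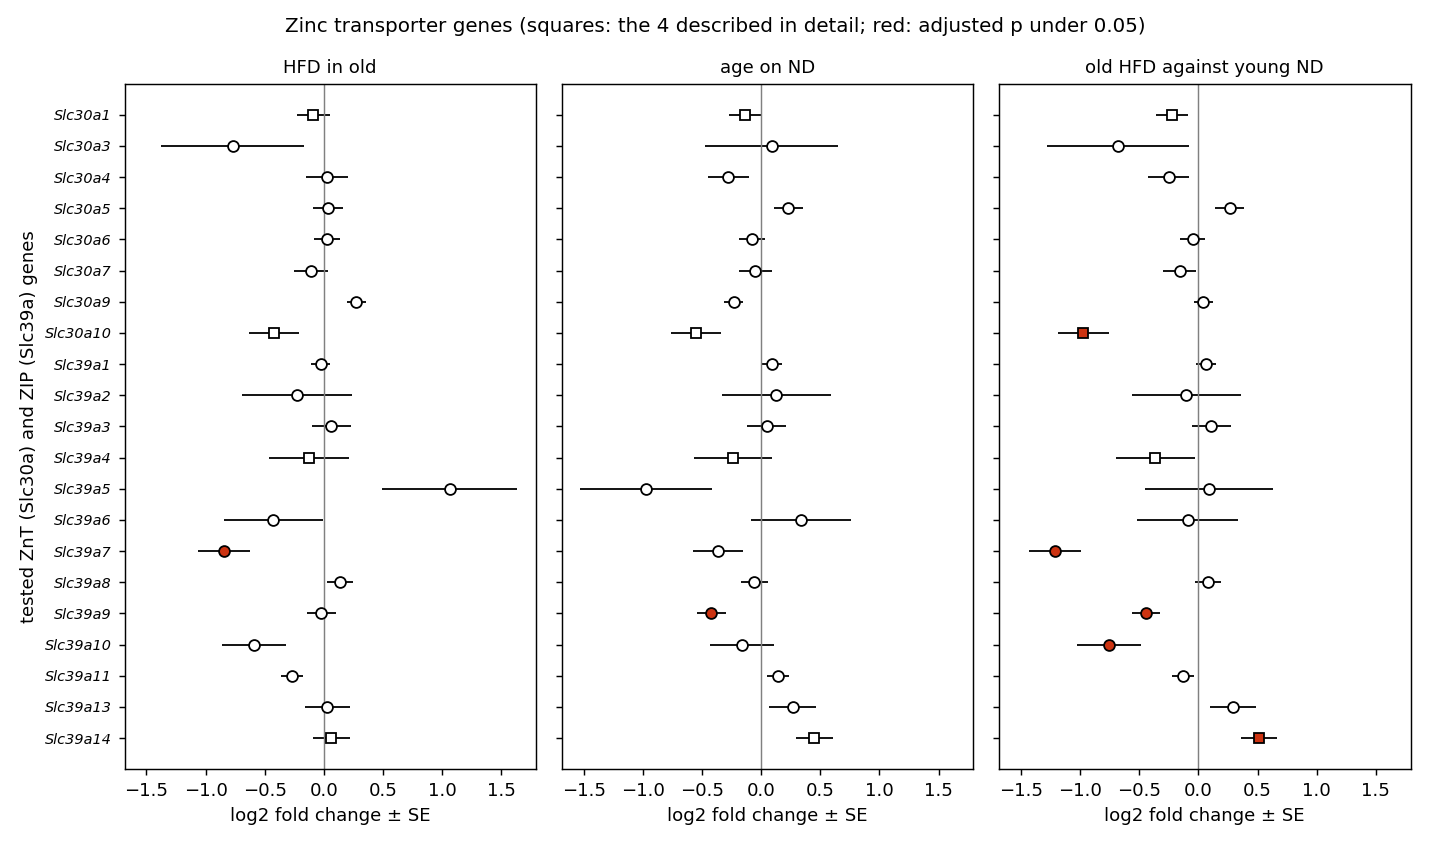
Log2 fold change with its standard error for all tested Slc30a and Slc39a genes in 3 comparisons, with squares for the 4 transporter genes described in detail and red for an adjusted p under 0.05. In old HFD against young ND, Slc30a10 (-0.97), Slc39a7 (-1.21), Slc39a9 (-0.44) and Slc39a10 (-0.75) fell and Slc39a14 (0.51) rose.

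As a description, tested genes whose log2 CPM followed each member most closely over 24 mice were listed, from the 5 closest of each. These mice share batches and groups, and so no test is given. For Mt1 they were Lcn2 (r = 0.859), Limd2, Orm3, Pde7b and Rasa3, and for Mt2 they were Mt1 (r = 0.956), Lcn2, Hp, Orm3 and Orm2. Without old ND replicate 4 the Mt1 list was Rgs16 (r = 0.865), Tnfsf10, Limd2, Rasa3 and Il1rn, and Mt2 was followed by Mt1 (r = 0.942), Ifi27l2b, Shisa5, H3f3b and Foxp2, and none of Lcn2, Hp, Orm2 and Orm3 was in either list. Slc30a10 was followed by Lrfn3 (r = 0.871), Selenoi, Clock and S1pr1, and Slc39a14 by St3gal4 (r = 0.828), Ctcflos, Tmem87a, Mt1 and Bcl2l11. With old ND replicate 4 left out, the Slc39a14 list was Mtss1 (r = 0.830), Ctcflos, Per3, Mfsd2a and Rgs16, and no longer held Mt1. Slc39a4 was followed by Hsd11b1 (r = 0.831, and 0.705 without that mouse), Cr1l, Cyp2a12, Ncam2 and Ces1g. The closest gene to Slc30a1 was Gcc1, with an r of 0.677, lower than for any other member. Of 15 clock genes 4 fell with HFD in young mice, led by Nfil3 (log2 fold change -1.32 ± 0.28, adjusted p = 0.0131), and 1, Cry1 (-1.32 ± 0.31, adjusted p = 0.00951), fell with age on ND. Of all tested genes 3.5% and 8.5% were called in these comparisons. Without old ND replicate 4, 2 clock genes rose and 4 fell with HFD in young mice, where 4.95% of all genes were called. In old HFD against young ND, where Slc30a10 and 30.2% of all tested genes were called, 3 clock genes rose and 5 fell. One of 12 genes of the unfolded protein response, Asns (-2.48 ± 0.57, adjusted p = 0.0195), fell with HFD in young mice.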

How the data were processed

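Hepatocyte RNA-seq libraries of 24 male mice, 6 in each of 4 groups, were analysed. The group, replicate number and batch of a mouse are those in its labels. Ages and substrains follow the labels, and the study's text gives other ages and another ND. The members and the gene lists were chosen with earlier results of these data known.

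The authors deposited raw counts per gene, aligned to mm10 with STAR 2.7.3a and counted with HTSeq 0.11.2 on the Gencode annotation. Strand use is not given in the sources used here. The authors also deposited FPKM values from CuffLinks, adjusted between batches by ComBat per the table's name, for 37789 genes and 5 of the 6 members (not Mt2). FPKM values served only as an alternative.

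Counts were tested with edgeR 4.0.16 (R 4.3.3), using TMM scaling, filterByExpr by group, terms for group and batch over all 24 mice, and the quasi-likelihood test, adjusted by Benjamini-Hochberg over 13583 genes, at an adjusted p of 0.05. The script was tested on simulated data. Log2 CPM used a prior count of 2. Every adjusted p in the text for a fold change is from this test unless another tool is named. Total counts of 9200332 to 22185069 per mouse set the precision, and reads without molecular identifiers make counting error a lower limit. No pair of mice among the 60 within groups agreed to within sampling noise (chi-square per degree of freedom of at least 14.5). Mt1 and Mt2 were correlated within groups by exact permutation of pairings (scipy 1.17.1, numpy 2.4.6, pandas 2.3.3). Figures used matplotlib 3.10.9. Transcript lengths and positions are from the GENCODE M21 annotation and promoters from RefSeq (4 of 6 members matched).

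Named were every member, the other family genes called in any comparison among the 6 tests, and 1 gene per list and comparison with the smallest adjusted p. Slc39a5, which with all mice passed between old ND and young HFD but in none of those 6, is given with other values. A replicate block was tried because the groups share replicate numbers, which belong to different mice. Other alternatives were no batch term, each batch alone, only the groups compared, RLE scaling, no count filter, DESeq2 1.42.0, limma 3.58.1 on log2(FPKM + 1) and on log2(FPKM + 0.1), and leaving out each mouse. A robust spread, list counts without single mice and likeness over 23 mice were added after seeing the data. One gene among those closest to a member is not reported here.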

Additional observations from a re-analysis of the deposited data

Results flagged for a closer look

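In 24 sets of 6 mice (6 genes in 4 groups), the highest or lowest log2 CPM was compared with the rest of its group by Dixon's criterion, which chance passes in about 1 of 20 sets. Old ND replicate 4 lay far above the other 5 old ND mice in Mt1, at 9.30 log2 CPM, and in Mt2, at 8.98 log2 CPM. Old HFD replicate 3 lay above the other 5 old HFD mice in Slc39a4, at 4.82 log2 CPM.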

How the results depend on the processing

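The number of members called kept its side in most alternatives. The share of all tested genes that the same fit called is given in brackets. With HFD in young mice, 2 were called in batch 1 alone (0.96%), 1 by DESeq2 (9.24%), 3 without a count filter (4.56%), 3 with only the groups compared (18.6%), and 0 to 3 when a mouse was left out (3 without old ND replicate 4, 1 without old HFD replicate 2). With age on ND, 0 were called in batch 1 alone (0.687%), 0 in batch 2 alone (0.014%), 1 by DESeq2 (12.3%) and 0 in each of the 3 limma fits (0.107% to 2.71%). For old HFD against young ND, 0 were called in batch 2 alone (4.33%) and 2 by DESeq2 (34.4%), where Mt1 and Mt2 could not be counted. Without a count filter Mt1 and Mt2 were called lower with HFD in old mice (3.43%), Mt1 and Mt2 higher and Slc39a4 lower with age on HFD (3 members, 3.82%), and the interaction of Mt1 and Mt2 was called as negative (2 members, 1.82%). With HFD in young mice that fit called Mt1 and Mt2 higher and Slc30a10 lower. Its estimates for these calls were close to those with the filter, so the calls go with a smaller estimate of the spread. DESeq2 gave no adjusted p for Mt1 or Mt2, and the limma fits hold no Mt2. The cause of each difference was not tested, apart from fewer mice in single batches and members that could not be counted.

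Some signs turned without any call. For HFD in old mice, Mt1 had a log2 fold change of 1.90 in batch 1, 0.74 by limma on log2(FPKM + 0.1), 0.69 on log2(FPKM + 1) with and without a filter, and 0.33 with the replicate block. It ranged from -2.36 to 1.82 when a mouse was left out, and Mt2 from -3.72 to 1.92, with 2.29 in batch 1. Slc39a4 in that comparison was 0.0245 in batch 1, 0.0003 without the batch term and 0.058 with the replicate block, and -0.32 to 0.13 without a mouse, and Slc39a14 was -0.012 to 0.25. Slc30a1 in batch 1 was -0.10 for the interaction, 0.0295 for age on ND, 0.0094 and 0.11 for HFD in old and young mice and 0.0389 for old HFD against young ND. For age on HFD it was 0.0079 by DESeq2, 0.0074 with RLE scaling and -0.0963 to 0.0473 without a mouse, and for HFD in old mice -0.15 to 0.013 without a mouse. The interaction of Slc30a10 was -0.0676 in batch 1 and -0.10 to 0.29 without a mouse. For age on HFD, Slc39a14 was -0.0611 in batch 1, -0.015 without a count filter and -0.024 to 0.13 without a mouse.

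Samples with the same replicate number are different mice, and their deviations had a mean correlation of 0.182, and of -0.0505 with batch removed. With the replicate block 3 members were called with age on ND (Slc39a14 at 0.45, adjusted p = 0.0487 by edgeR), where 9.94% of all genes were, and 4 for old HFD against young ND, where 25.6% were, and it ended no call. No replicate block was fitted for Mt1 against Mt2, which gives no contrast. In old HFD the r of Mt1 and Mt2 was 0.980 to 0.997 without a mouse, with an adjusted p of 0.0667 by exact permutation of the 5 left, the smallest that 5 mice can give beside the other groups, so that this loss of the call says nothing about stability. In young ND it was 0.889 to 0.957, passing only without replicate 6 (adjusted p = 0.0333 by exact permutation). The planned FPKM version of that correlation was not run, because Mt2 has no FPKM value here. Mt2 in old HFD against young ND also lost its call without the batch term (adjusted p = 0.0562 by edgeR) and with a robust spread (0.07). With 1 to 13 counts of Mt2 in young ND mice, its depth limits every fold change against that group.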

Other observations

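Slc39a5, the gene of the importer ZIP5, was called between old ND and young HFD, with a log2 fold change of -2.09 ± 0.56 (SE; adjusted p = 0.0298 by edgeR), and all 6 old ND mice were below every young HFD mouse. With all 24 mice it was called in none of the other comparisons, and without old HFD replicate 2 it also fell with age on HFD. Across the mice, the ratio of the authors' batch-adjusted FPKM to CPM per kilobase ranged from 0.190 to 5.03 for Mt1, from 0.853 to 0.969 for Slc30a1, from 0.390 to 0.523 for Slc30a10, from 0.444 to 1.02 for Slc39a4 and from 0.0970 to 0.116 for Slc39a14.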
